A study of Schmidtea mediterranea with 40 samples.

Results

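The planarian contig dd_Smed_v6_950_0_1, shortened here to dd_950, carries the best planarian match *ifb*, an intermediate filament gene, and the best human match vimentin. It was picked by its contig name, as 1 of 28742 contigs in the read count table, because it was already known to be low after *activin-2* RNAi. The difference between the RNAi arms is therefore described below with no test, whereas wound orientation, labelled time and the variation of the RNAi effect were not used in the choice and were tested. Asexual *Schmidtea mediterranea* of strain CIW4 had been fed dsRNA 4 times over 14 days and were cut 7 days after the last feeding. The RNAi animals received *activin-2* dsRNA, and the control RNAi animals received dsRNA of *unc-22*, a *Caenorhabditis elegans* gene. Poly(A) RNA was sequenced in bulk from post-pharyngeal fragments, with 5 wounds pooled in each replicate, in 40 libraries. Each arm had 3 libraries labelled 0 hpa (hours post amputation), 3 each of posterior-facing wounds labelled 6, 24 and 48 hpa, and 4 each of anterior-facing and of posterior-facing wounds at 18 hpa, in 12 groups in all. The labels give no orientation at 0 hpa, where the study describes posterior-facing wounds. Nothing in the labels says that the replicates were separate cultures, so p-values measure the spread between these samples only.

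Intermediate filament proteins share a central coiled-coil rod, assemble into rope-like filaments and give cells resistance to stretch. Cytoplasmic members, such as vertebrate vimentin and the keratins, span the cell and are tied to junctions and to the other filaments by plakins such as plectin and dystonin. Lamins, the nuclear members, line the inner face of the nuclear envelope and carry a lamin tail domain (LTD). Activins are secreted TGF-β-family ligands, and in planarians they act in regeneration and in the patterning of the body axis.

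The annotation of dd_950 was checked first. Its protein family entry is Filament, with no lamin tail domain, and its human match to vimentin has an E-value of 7e-18. The name *ifb* is not exclusive to it, since 5 contigs have *ifb* as their best planarian match. The match of dd_950 has an E-value of 4e-22. The same match has an E-value of 3e-151 in dd_3065, 2e-37 in dd_3871, 7e-27 in dd_12254 and 1e-20 in dd_364. The contig with by far the closest match to *ifb* is thus dd_3065, and dd_950 is called by its contig name below. In all, 11 contigs carry the Filament term. Among the 10 others, dd_364 also matches vimentin, while dd_3871, dd_850, dd_13326 and dd_6732 match lamin A/C. The remaining ones are dd_12254 and dd_3065, without a named human match, dd_3707, with neither match named, and dd_249 and dd_711, which match myosin heavy chains, the coiled-coil motors of muscle. The lamin tail domain did not follow the human match. It is annotated in dd_364, dd_3065, dd_3871 and dd_850, but not in the lamin A/C matches dd_13326 and dd_6732. It was therefore not used to tell nuclear from cytoplasmic members. Reads that 2 similar contigs share could have been assigned to either one. This was not tested because no sequence was used.

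The libraries held 2524235 to 13381025 counted reads, with a median of 10533396, so that 1 read was worth 0.0747 to 0.396 RPM (reads per 1000000 counted reads of a library). No 2 replicates held identical counts. The targeted gene, *activin-2* (dd_3324), was lower in *activin-2* RNAi at labelled 0, 6, 24 and 48 hpa, with log2 fold changes of -3.20 to -3.98 (edgeR quasi-likelihood test, adjusted p from 5.37e-08 to 5.55e-06). At 18 hpa it was not called. Its reads there ranged from 25.8 to 85.8 RPM in *activin-2* RNAi and 27.1 to 31.9 RPM in control RNAi at anterior-facing wounds (log2 fold change 0.69, adjusted p = 0.30). At posterior-facing wounds they ranged from 3.63 to 70.1 RPM in *activin-2* RNAi and 33.4 to 44.3 RPM in control RNAi (log2 fold change -0.80, adjusted p = 0.41). There 3 of the 4 *activin-2* RNAi libraries, with 16.6, 6.02 and 3.63 RPM, lay below every control RNAi library. Whether any of these reads came from the fed double-stranded RNA was not tested. The 4 pharynx contigs dd_554, dd_561, dd_372 and dd_8673 summed to 0.4 to 177 RPM over the libraries. Tissue from behind the pharynx should lack them, but the study reports ectopic pharynges in some *activin-2* RNAi animals. The control RNAi libraries labelled 24 hpa also held 11.1 to 75.5 RPM. Where these reads came from was not tested.

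dd_950 was lower in *activin-2* RNAi than in control RNAi under every condition sampled, and in none of the 6 comparisons did the libraries of the arms overlap. At labelled 0 hpa it had 11.0, 12.4 and 8.13 RPM in *activin-2* RNAi, against 125, 81.9 and 123 RPM in control RNAi. The low level was therefore present in the libraries labelled 0 hpa. At labelled 6 hpa the values were 13.5, 15.8 and 4.85 RPM in *activin-2* RNAi, against 73.4, 88.7 and 51.9 RPM in control RNAi. The third replicate of each arm was the lowest of its group there, and the third *activin-2* RNAi library held 58 reads of the contig.

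At anterior-facing wounds at 18 hpa, dd_950 had 5.89, 12.3, 6.53 and 4.18 RPM in *activin-2* RNAi, against 89.3, 65.3, 106 and 116 RPM in control RNAi. At posterior-facing wounds of the same time it had 35.5, 60.1, 42.0 and 41.0 RPM in *activin-2* RNAi, against 291, 262, 271 and 288 RPM in control RNAi. Both arms were thus higher at posterior-facing wounds.

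At labelled 24 hpa, dd_950 had 30.5, 42.4 and 24.9 RPM in *activin-2* RNAi, against 348, 280 and 318 RPM in control RNAi. At labelled 48 hpa it had 33.2, 21.7 and 23.0 RPM in *activin-2* RNAi, against 193, 109 and 153 RPM in control RNAi. The third *activin-2* RNAi library at 48 hpa was the shallowest of all, with 58 reads of dd_950 among 2524235, and its level lay between those of the other 2.

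**Figure D1:**
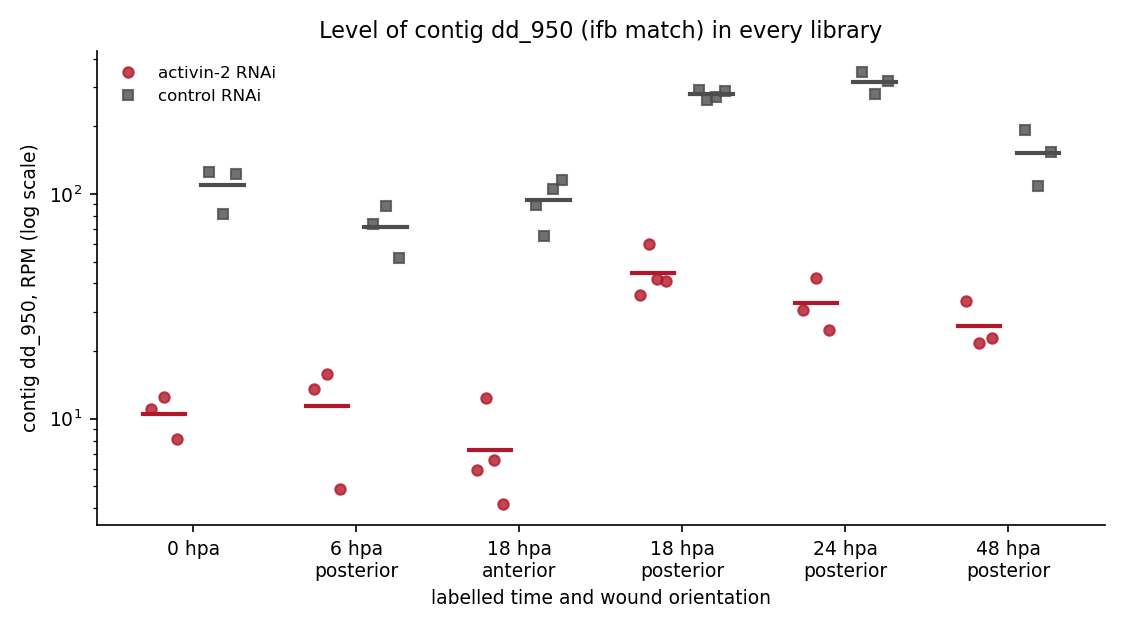
Level of dd_950 in RPM on a log scale in each of the 40 libraries (points), with group means (lines), at each labelled time and wound orientation, *activin-2* RNAi left of control RNAi. The *activin-2* RNAi libraries run from 4.18 to 60.1 RPM and the control RNAi libraries from 51.9 to 348 RPM, and both arms are highest at posterior-facing wounds labelled 18 and 24 hpa.

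As group means, dd_950 was 10.5 ± 2.20 RPM in *activin-2* RNAi and 110 ± 24.4 RPM in control RNAi at labelled 0 hpa (SD, n = 3 each), so that *activin-2* RNAi held 9.58% of the control RNAi level. The same share was 16.0% at labelled 6 hpa, 7.69% at anterior-facing and 16.1% at posterior-facing wounds at 18 hpa, 10.3% at labelled 24 hpa and 17.1% at labelled 48 hpa. The log2 fold changes from the edgeR fits were -3.35 (SE 0.17), -2.58 (SE 0.35), -3.73 (SE 0.26), -2.69 (SE 0.11), -3.42 (SE 0.16) and -2.57 (SE 0.22) in that order of conditions. The gap between the arms was wide, since the lowest control RNAi library was 3.27 to 6.59 times the highest *activin-2* RNAi library of the same condition. Over all conditions, 1 of 20 *activin-2* RNAi libraries, the second of posterior-facing wounds at 18 hpa, lay above the lowest of 20 control RNAi libraries, the third labelled 6 hpa. In these bulk libraries, fewer cells that express the contig and less RNA of it per cell cannot be told apart.

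For scale, contigs called lower in *activin-2* RNAi (edgeR quasi-likelihood test, Benjamini-Hochberg adjusted p under 0.05) made up 3.13% of those tested at labelled 0 hpa, 1.26% at 6 hpa, 1.84% at anterior-facing and 5.78% at posterior-facing wounds at 18 hpa, 7.96% at 24 hpa and 1.84% at 48 hpa. Of 14971 contigs tested in all 6 comparisons, 29 were called lower in every one. None of the 14971 had all 6 log2 fold changes under -2.57, the weakest value of dd_950. These counts describe the contrast by which the contig was chosen and add no support to it.

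The medians of larger lists of contigs annotated to other cell types were close to 0 between the arms. Over the 6 comparisons, the median log2 fold change between the arms lay between -0.07 and 0.01 for 1136 muscle contigs, -0.04 and 0.03 for 924 gut contigs, -0.15 and 0.0007 for 306 neural contigs, and 0.02 and 0.14 for 470 contigs of neoblasts, the planarian stem cells. Within a condition, the summed levels of the muscle, gut, neural and neoblast lists overlapped between the arms in 20 of 24 pairs. They did not overlap for the neural list at 24 hpa (8731 to 9893 RPM in *activin-2* RNAi and 7879 to 8394 RPM in control RNAi) or at 18 hpa posterior-facing wounds (10977 to 11633 RPM in *activin-2* RNAi and 10099 to 10968 RPM in control RNAi). The summed RPM, scaled by library size only, was higher in *activin-2* RNAi in both. In the edgeR fits, with their own normalization, the median neural contig was instead lower in *activin-2* RNAi, at -0.15 and -0.04 in the same order. The sums therefore do not show that the list as a whole was higher. At 6 hpa the muscle list had 70815 to 78955 RPM in *activin-2* RNAi and 68546 to 69943 RPM in control RNAi, and the neoblast list 6958 to 7346 RPM in *activin-2* RNAi and 7574 to 7808 RPM in control RNAi. Muscle contigs summed to 63891 to 99882 RPM in *activin-2* RNAi and 63148 to 84257 RPM in control RNAi, and gut contigs to 102364 to 126666 RPM in *activin-2* RNAi and 99708 to 119040 RPM in control RNAi. Neural contigs summed to 8282 to 12749 RPM in *activin-2* RNAi and 7879 to 12934 RPM in control RNAi, and neoblast contigs to 5990 to 8242 RPM in *activin-2* RNAi and 6084 to 8435 RPM in control RNAi. At 24 hpa, 52 of 262 tested neural and 114 of 855 tested muscle contigs were called lower in *activin-2* RNAi (edgeR), beside 7.96% of all contigs. The 4 contigs taken as pharynx markers were all called higher at 18 hpa posterior-facing wounds, with a median log2 fold change of 6.03, beside 3.15% of all contigs. They summed there to 54.2 to 177 RPM in *activin-2* RNAi and 0.7 to 1.8 RPM in control RNAi, whereas at labelled 0 hpa they summed to 6.7 to 21.2 RPM in *activin-2* RNAi and 0.4 to 41.9 RPM in control RNAi, which overlap. The part of any of these lists in the dd_950 difference was not tested. dd_950 itself has no cell type in this annotation, and 0 contigs carry an epidermal, cathepsin-positive, parenchymal, protonephridial, pharynx or secretory term in it.

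The spread of dd_950 between replicates was large. Its coefficient of variation was 20.9% to 50.8% within the 6 *activin-2* RNAi groups and 4.99% to 27.8% within the 6 control RNAi groups. Counting alone would give 4.72% to 12.8% in *activin-2* RNAi and 1.725% to 3.499% in control RNAi, from 45 to 566 reads per *activin-2* RNAi library and 442 to 3763 per control RNAi library. In 1 fit of all 12 groups its biological coefficient of variation was 0.255, against a median of 0.0889 over 18350 contigs, and was higher than that of 94.3% of them. The tightest group was control RNAi at posterior-facing wounds at 18 hpa.

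The level of dd_950 differed between the wound faces at 18 hpa in both arms. In *activin-2* RNAi it averaged 7.23 ± 3.53 RPM at anterior-facing and 44.6 ± 10.7 RPM at posterior-facing wounds (SD, n = 4 each), and the anterior-facing level was 16.2% of the posterior-facing one. In control RNAi it averaged 94.0 ± 21.98 RPM at anterior-facing and 278 ± 13.9 RPM at posterior-facing wounds (SD, n = 4 each), or 33.8%. Every anterior-facing library lay below every posterior-facing one within its arm (two-sided exact permutation test, p = 0.0286 in each arm, the lowest value possible with groups of 4).

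The log2 fold change of anterior- over posterior-facing wounds was -2.67 in *activin-2* RNAi (SE 0.24, edgeR quasi-likelihood test, adjusted p = 2.50e-06). In control RNAi it was -1.62 (SE 0.13, adjusted p = 7.73e-07). Contigs called lower at anterior-facing wounds made up 9.51% of those tested in *activin-2* RNAi and 8.19% in control RNAi. The RNAi effect was 1.05 further below 0 on the log2 scale at anterior-facing wounds, as an interaction of -1.05 (SE 0.31, 95% interval -1.65 to -0.45) with an unadjusted p of 0.00265. The edgeR quasi-likelihood test adjusted over 17011 contigs gave an adjusted p of 0.488, so the difference between the arms was not called, and contigs with a called interaction made up 0.0941%.

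Other features also differed between the wound faces. In *activin-2* RNAi, the summed pharynx contigs were 3.9 to 14.2 RPM at anterior-facing and 54.2 to 177 RPM at posterior-facing wounds, and in control RNAi 1.1 to 1.8 and 0.7 to 1.8 RPM at the same faces. The level of dd_950 differed between the faces in both arms. The median log2 fold change of anterior- over posterior-facing wounds was 0.05 in *activin-2* RNAi and 0.08 in control RNAi for muscle, -0.04 and -0.05 for gut, 0.13 and 0.17 for neural, and -0.03 and -0.02 for neoblast contigs. The part of pharynx tissue, or of any other tissue, in the orientation difference was not tested.

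Over labelled time at posterior-facing wounds, dd_950 was highest at 18 and 24 hpa in both arms. In *activin-2* RNAi the means were 10.5 ± 2.20 RPM at 0, 11.4 ± 5.78 at 6, 44.6 ± 10.7 at 18, 32.6 ± 8.98 at 24 and 26.0 ± 6.31 at 48 hpa (SD, n = 3, and 4 at 18 hpa). In control RNAi they were 110 ± 24.4 RPM at 0, 71.3 ± 18.5 at 6, 278 ± 13.9 at 18, 315 ± 34.2 at 24 and 152 ± 42.2 at 48 hpa (SD, n = 3, and 4 at 18 hpa). The curves differed in where the top mean fell, 18 hpa in *activin-2* RNAi and 24 hpa in control RNAi, but in each arm the libraries of these 2 groups overlapped.

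Against labelled 0 hpa in *activin-2* RNAi, dd_950 rose at 18 hpa (log2 fold change 2.01, SE 0.18, edgeR adjusted p = 1.77e-06) and at 24 hpa (1.62, SE 0.20, adjusted p = 3.20e-04). At 48 hpa the value was 1.36 (SE 0.21, adjusted p = 0.00938), and this call was lost without the third library labelled 0 hpa (1.19, adjusted p = 0.0584). At 6 hpa it was 0.13 (SE 0.36, adjusted p = 0.91), with a 95% interval of -0.59 to 0.84. Contigs called higher made up 0.38% of those tested at 6 hpa, 19.8% at 18 hpa, 6.01% at 24 hpa and 0.403% at 48 hpa.

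In control RNAi, dd_950 rose at 18 hpa (log2 fold change 1.34, SE 0.11, edgeR adjusted p = 2.05e-06) and at 24 hpa (1.68, SE 0.14, adjusted p = 4.86e-06). At 48 hpa the value of 0.58 (SE 0.17) passed narrowly (adjusted p = 0.0482). That call was lost with DESeq2, library size scaling or all 12 groups in 1 fit, with adjusted p from 0.12 to 0.195, and without the second or the third library labelled 0 hpa (0.43 and 0.62) or the first or the third labelled 48 hpa (0.37 and 0.58). At 6 hpa the value was -0.65 (SE 0.18) and was not called (adjusted p = 0.136), but was called when contigs with few reads were kept (-0.63, adjusted p = 0.0129). Contigs called higher made up 0.258% at 6 hpa, 13.8% at 18 hpa, 11.6% at 24 hpa and 5.58% at 48 hpa.

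The RNAi effect itself was not shown to vary over labelled time. Relative to labelled 0 hpa, the log2 interaction was 0.79 at 6 hpa (95% interval -0.06 to 1.63), 0.66 at 18 hpa (-0.10 to 1.41), -0.09 at 24 hpa (-0.90 to 0.73) and 0.77 at 48 hpa (-0.065 to 1.605). The adjusted p from edgeR were 0.835, 0.514, 0.938 and 0.538. Contigs with a called interaction made up 0% at 6 hpa (1107 of 18350 had an unadjusted p under 0.05, and DESeq2 called 2), 0.0981% at 18 hpa, 5.48% at 24 hpa and 0.283% at 48 hpa. These intervals are wide enough to hold changes of the RNAi effect of about 1 log2 unit at 3 of the 4 times.

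The time labels were used as given, whether they are right was not tested, and every comparison over labelled time rests on them. Of the study's list of wound-induced contigs, 127 were found in the read count table, and dd_950 was not among them. In control RNAi they had a median log2 fold change of -0.21 at labelled 6 against 0 hpa. There 89 of 122 tested members were below 0 and 11 were called lower (edgeR), beside 0.563% of all contigs. The list had 77 of 125 tested members called lower at labelled 24 than at 0 hpa in control RNAi, with a median log2 fold change of -0.62, where 11.9% of all contigs were called lower. At labelled 48 hpa, 41 of 122 were called higher and 15 lower, with a median of 0.12, beside 5.58% and 5.39% of all contigs. In *activin-2* RNAi, 74 of 124 were called lower at 24 hpa, with a median of -0.56, beside 6.82% of all contigs. dd_950 was near its highest level in the libraries in which this list was lowest. The labels give no library batch, and a batch of the 18 hpa libraries, which alone have 4 replicates, cannot be told apart from time, whereas both wound faces and both arms were sampled within it.

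Ordered by mean, dd_950 in *activin-2* RNAi was lowest at 18 hpa anterior-facing wounds, then at labelled 0, 6, 48 and 24 hpa, and highest at 18 hpa posterior-facing wounds. The ratio of the highest to the lowest mean was 6.17. Neighbours in this order overlapped in their libraries except for labelled 6 and 48 hpa. In control RNAi the order was 6 hpa, 18 hpa anterior-facing wounds, 0, 48, 18 hpa posterior-facing wounds and 24 hpa, with a ratio of 4.42. The neighbours there overlapped except for labelled 48 hpa and posterior-facing wounds at 18 hpa. Both orders thus have a low set and a high set, and anterior-facing wounds at 18 hpa belong to the low set in both arms. The sets are not the same, since labelled 48 hpa is in the high set in *activin-2* RNAi and in the low set in control RNAi.

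Among the 10 other contigs with the Filament term, the 4 that share the *ifb* match were lower in *activin-2* RNAi in most comparisons, and the lamin-like contigs without that match were not. Called lower were 4 of 10 at labelled 0 hpa, 3 at 6 hpa, 4 at anterior-facing and 5 at posterior-facing wounds at 18 hpa, 4 at 24 hpa and 4 at 48 hpa, against 1.26% to 7.96% of all contigs. The median log2 fold change of the 10 lay between -0.34 and -0.14, beside -0.0006 to 0.02 over all contigs tested. The list was chosen with earlier results of these data known, so these counts and calls are descriptions and not independent support. The counts of called contigs rested on single libraries at 6, 24 and 48 hpa. At 6 hpa they were 1 without the first *activin-2* RNAi library and 0 without the second or without the first control RNAi library. At 24 hpa, where 1 further contig was called higher, the count in either direction fell to 3 without the third *activin-2* RNAi or the first or second control RNAi library. At 48 hpa it was 2 without the third *activin-2* RNAi or the first or second control RNAi library, and 1 without the third control RNAi library.

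dd_364, the other contig with a vimentin match, which also has the lamin tail domain, was called lower in all 6 comparisons. Its log2 fold changes were -1.24 at labelled 0 hpa, -0.68 at 6 hpa (adjusted p = 0.0495), -1.16 at anterior-facing and -0.97 at posterior-facing wounds at 18 hpa, -1.20 at 24 hpa and -0.87 at 48 hpa (edgeR quasi-likelihood test). At posterior-facing wounds at 18 hpa it had 802, 789, 731 and 682 RPM in *activin-2* RNAi, against 1442, 1421, 1395 and 1415 RPM in control RNAi. The arms did not overlap there, and the fold was smaller than that of dd_950.

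dd_12254, with the Filament term and no lamin tail domain like dd_950, had log2 fold changes of -1.15 to -1.84 and was called lower in 5 of 6 comparisons, the exception being 6 hpa (-1.15, edgeR adjusted p = 0.12). It is a scarce contig, with 3057 reads over all libraries. At anterior-facing wounds at 18 hpa it had 2.71, 3.31, 2.22 and 3.35 RPM in *activin-2* RNAi, against 9.23, 9.68, 11.3 and 10.7 RPM in control RNAi, with no overlap.

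dd_3065, the contig with the closest *ifb* match, was called lower in all 6 comparisons. Its log2 fold changes were between -1.07 and -1.24 in 5 of them and -0.40 at labelled 24 hpa (edgeR adjusted p = 0.0427). At labelled 24 hpa it had 94.4, 119 and 109 RPM in *activin-2* RNAi, against 146, 126 and 112 RPM in control RNAi, and the arms overlapped. dd_3871, which matches lamin A/C, followed the same course, with -0.99 to -1.24 in 5 comparisons and -0.28 at 24 hpa (adjusted p = 0.17), where it was not called.

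The other lamin-like and myosin-like contigs, and dd_3707 with neither match named, were called in at most 2 of the 6 comparisons. dd_850, dd_3707 and dd_711 were called in none of the 6 comparisons (edgeR, adjusted p of 0.0629 or above). dd_6732, annotated to neoblasts, rose by 0.21 at posterior-facing wounds at 18 hpa (adjusted p = 0.0195), and dd_13326 rose by 0.58 at labelled 24 hpa (adjusted p = 0.017), where 3.15% and 4.51% of all contigs were called higher. dd_249, a myosin heavy chain match, had -0.35 at posterior-facing wounds at 18 hpa (adjusted p = 0.00507) and -0.69 at 24 hpa (adjusted p = 7.54e-04).

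**Figure D2:**
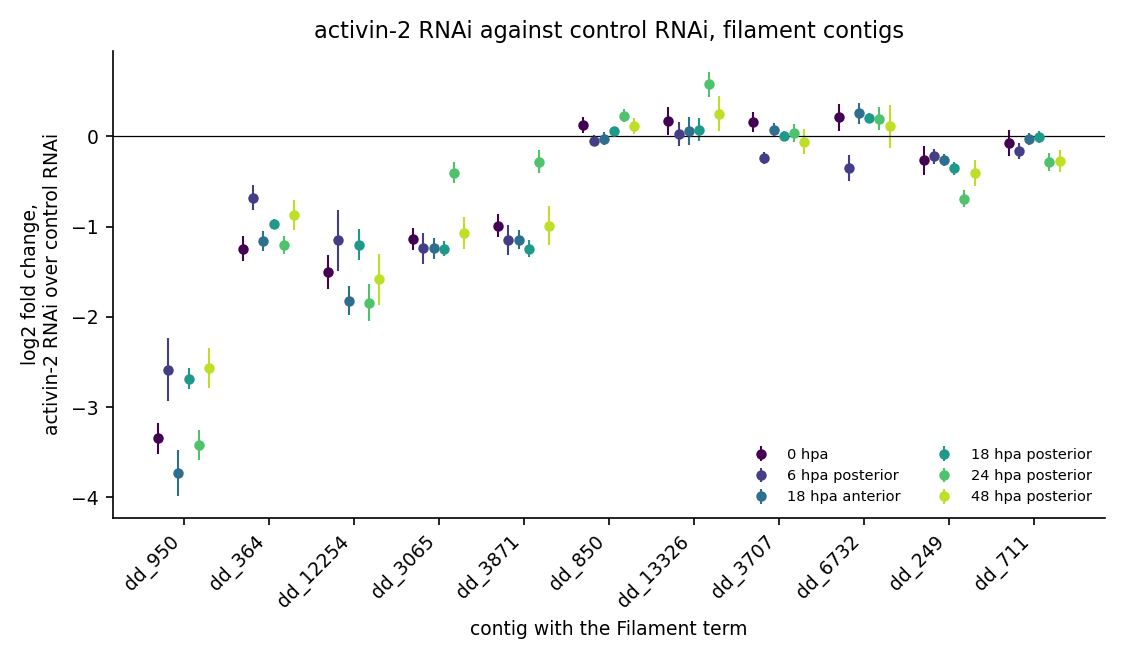
Log2 fold change between the arms, positive where *activin-2* RNAi is higher (points, with bars of 1 SE) for the 11 contigs with the Filament term, in 6 comparisons by labelled time and wound orientation. dd_950 lies between -2.57 and -3.73, dd_364, dd_12254, dd_3065 and dd_3871 between -0.28 and -1.84, and the others between -0.69 and 0.58.

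The contigs with an *ifb* match differed in the direction of their difference between the wound faces. In *activin-2* RNAi, dd_364 was lower at anterior- than at posterior-facing wounds by a log2 fold change of -0.81 (edgeR adjusted p = 6.39e-06), and in control RNAi by -0.62 (adjusted p = 5.91e-04). dd_12254 was also lower, by -1.08 in *activin-2* RNAi (adjusted p = 0.00461) and -0.47 in control RNAi (adjusted p = 0.0268). dd_3065 was in contrast higher at anterior-facing wounds, by 1.13 in *activin-2* RNAi and 1.12 in control RNAi (adjusted p = 1.32e-06 and 6.58e-06). dd_3871 was higher as well, by 1.22 and 1.12 in the same arms (adjusted p = 7.30e-07 and 5.62e-06).

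In control RNAi, dd_3065 had 391, 354, 290 and 431 RPM at anterior-facing wounds, against 142, 177, 167 and 159 RPM at posterior-facing wounds. The faces did not overlap, and their order was opposite to that of dd_950. Of the 10 contigs, 3 were called lower and 2 higher at anterior-facing wounds in each arm, the last of the lower ones being dd_6732 (-0.31 in *activin-2* RNAi and -0.36 in control RNAi). Contigs called higher there made up 8.88% in *activin-2* RNAi and 7.24% in control RNAi. With edgeR, 0 of the 10 had a called interaction of RNAi and orientation, 1 had an unadjusted p under 0.05, and DESeq2 called 0.

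**Figure D3:**
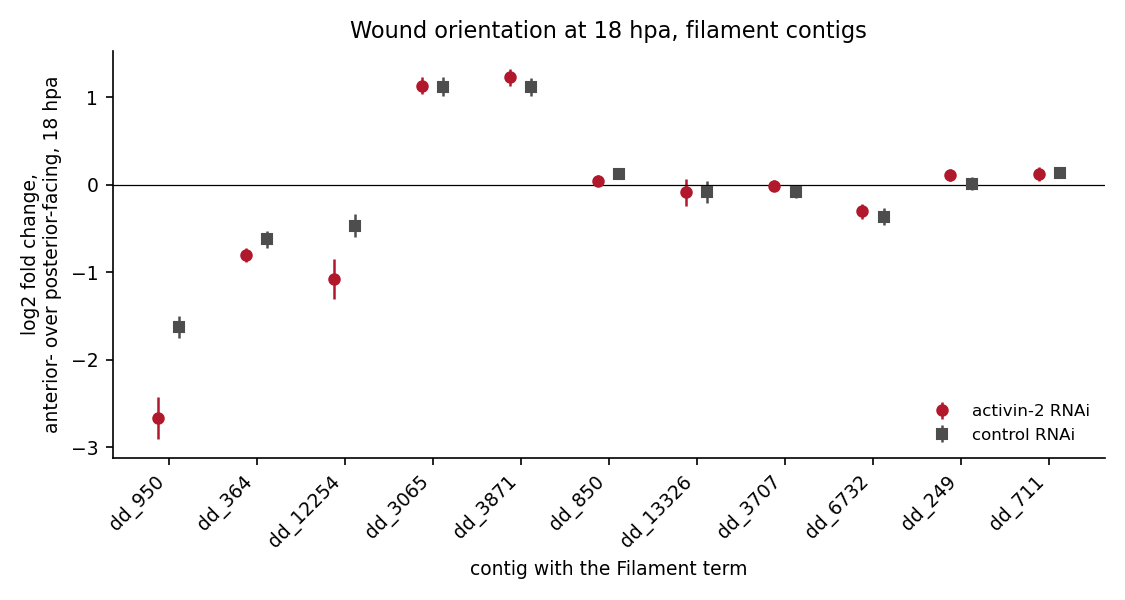
Log2 fold change of anterior- over posterior-facing wounds at 18 hpa (points, with bars of 1 SE) for the 11 contigs with the Filament term, *activin-2* RNAi left of control RNAi. dd_950 is lowest in both arms, at -2.67 and -1.62, while dd_3065 and dd_3871 lie between 1.12 and 1.22.

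Over labelled time dd_364 rose against labelled 0 hpa at 18 hpa, by a log2 fold change of 0.89 in *activin-2* RNAi (edgeR adjusted p = 3.04e-05) and 0.60 in control RNAi (adjusted p = 1.59e-04). At 24 hpa it rose by 0.84 and 0.78 in the same arms (adjusted p = 0.00153 and 5.08e-04). At 48 hpa dd_364 had 0.64 in *activin-2* RNAi and 0.26 in control RNAi and was not called in either arm (edgeR adjusted p = 0.127 and 0.182). dd_950 was called higher there in both arms, but each call was lost without some single libraries. The contigs were not tested against each other. dd_3065 had -0.32 at 18 hpa and 0.34 at 24 hpa in *activin-2* RNAi (adjusted p = 0.00847 and 0.0354), and -0.23 and -0.40 in control RNAi (adjusted p = 0.14 and 0.045). dd_12254 had -1.09 at 6 hpa in control RNAi (adjusted p = 0.0109), the only call of the 10 contigs at that time in either arm, where 0.563% of all contigs were called lower. Contigs called lower at 18 hpa made up 18.0% in *activin-2* RNAi.

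Contigs that match linkers of filaments, or the lamin B receptor of the nuclear envelope, were also read out. Of 5, the lamin B receptor match dd_17214 had 147 reads in all and was not tested. dd_8220, matching the plakin plectin with an E-value of only 5e-08, was lower in *activin-2* RNAi at labelled 0 hpa (-1.22, edgeR adjusted p = 0.00273) and 6 hpa (-0.73, adjusted p = 0.0361). It was far higher at 18 than at labelled 0 hpa, by 4.54 in *activin-2* RNAi and 3.47 in control RNAi (adjusted p = 3.64e-11 and 5.19e-11). Its group means were 151 to 236 RPM in the 18 hpa groups of both arms and faces, and 6.13 to 16.4 RPM in all others. For this step too, time and a batch of the 18 hpa libraries cannot be told apart. dd_6577, matching the plakin dystonin, was lower at anterior-facing wounds by -0.86 in *activin-2* RNAi and -0.92 in control RNAi (adjusted p = 6.65e-07 and 2.77e-06), the direction of dd_950, but it was called in no comparison of the arms. The other dystonin match, dd_1205, had -0.16 and -0.31 between the arms at posterior-facing wounds at 18 hpa and at 24 hpa (adjusted p = 0.0302 and 0.0285). dd_2016, matching the lamin B receptor, rose in *activin-2* RNAi by 0.27 at posterior-facing wounds at 18 hpa, by 0.60 at 24 hpa and by 0.55 at 48 hpa (adjusted p = 0.00295, 1.65e-04 and 0.0379), where at 48 hpa 0.496% of all contigs were called higher.

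The contig whose pattern over the libraries was most like that of dd_950 was dd_364, out of 16024 contigs with a mean of at least 1 RPM. Likeness was the Pearson correlation of log2(RPM + 1), given as a description, since the libraries share arms, times and depth. Over 40 libraries r was 0.963 for dd_364. It also ranked first over the 20 control RNAi libraries (r = 0.935) and for the deviations of 40 libraries from their group means (r = 0.791), and second over the 20 *activin-2* RNAi libraries (r = 0.854). Replicates with more dd_950 than their group thus also tended to have more dd_364.

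The read counts of dd_950 and dd_364 did not keep a fixed ratio. Per 100 reads of dd_364, and with no account taken of contig length, dd_950 had 1.62 to 5.95 reads as group means in *activin-2* RNAi and 7.46 to 21.9 in control RNAi. At posterior-facing wounds at 18 hpa it had 5.95 ± 1.31 in *activin-2* RNAi and 19.6 ± 0.876 in control RNAi (SD, n = 4 each). At anterior-facing wounds it had 1.62 ± 0.625 in *activin-2* RNAi and 9.73 ± 1.19 in control RNAi (SD, n = 4 each).

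**Figure D4:**
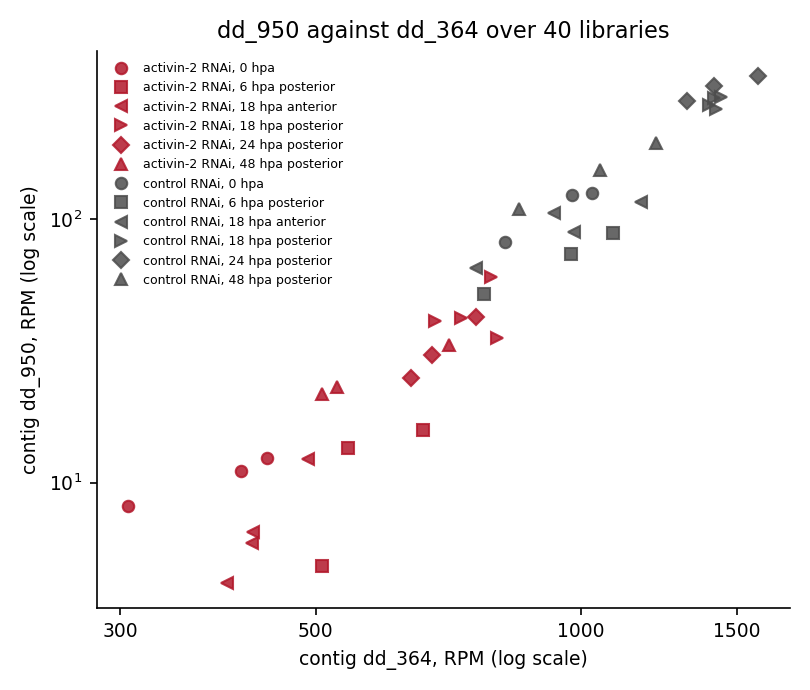
RPM of dd_950 against RPM of dd_364, both on log scales, in the 40 libraries, with *activin-2* RNAi in red, control RNAi in grey and a marker shape for each time and wound orientation. The points follow 1 rising band (r = 0.963 for log2(RPM + 1)) that is steeper than a fixed ratio.

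After dd_364, the contigs most like dd_950 over 40 libraries were dd_1083, with EF hands, a calcium-binding fold (r = 0.886), the filament contig dd_12254 (0.882), dd_9830 (0.876), the gut-annotated dd_2606 (0.873), dd_1040 with a DUF3421 domain (0.872), dd_11499 (0.862), dd_503 (0.862), dd_944 (0.853) and dd_6883 (0.849). dd_944 is annotated to gut and matches ETHE1, a mitochondrial sulfur dioxygenase, and dd_6883 matches tektin 3, a filament protein of ciliary and flagellar microtubules. Only 4 of these 10 were among the top 10 when the 18 hpa libraries were left out. The r over 40 libraries includes the arm difference by which dd_950 was chosen. With group means removed, r of those listed after dd_364 ran from 0.0397 (dd_11499) to 0.752 (dd_503). For deviations from group means, dd_503 (0.752), dd_2760 with a CRAL-TRIO domain, a lipid-binding fold (0.658), dd_15078 (0.643) and dd_1996 (0.615) followed dd_364. Over the control RNAi libraries alone these were dd_16722 (0.885), dd_7614 (0.869), dd_10013 (0.849) and dd_9076, a lengsin match (0.844).

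The family did not vary as a whole with dd_950. Over the control RNAi libraries, dd_3065 had r = -0.673 and dd_3871 r = -0.667 with it, dd_850 had -0.557 and dd_13326 -0.523, while dd_12254 had 0.778. The contigs that share a best match thus fell into a set that varied with dd_950 and a set that varied against it when no *activin-2* RNAi library was included. The opposition did not hold for deviations from group means over 40 libraries. There r was 0.0209 for dd_3065, 0.200 for dd_3871 and 0.328 for dd_12254. Over all 40 libraries dd_3065 had 0.409 and dd_3871 0.351.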

How the data were processed

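Counts were produced by the authors, who aligned reads to dd_Smed_v6 contigs with bowtie, counted with coverageBed and summed isotigs. The deposited values are raw read counts without normalization. The submitters' processing notes name CASAVA 1.9, cutadapt 1.8, Bowtie 1.2, SAMtools 1.6 and DESeq. The deposited annotation columns gave matches, families and cell types, and the columns of the authors' own comparisons (log2 fold changes and adjusted p-values) were not used. Arms, orientations and times were compared pairwise in R 4.3.3 with edgeR 4.0.16 (TMM, filterByExpr at its minimum of 10 counts and a total of 15, quasi-likelihood test, Benjamini-Hochberg adjustment over all contigs tested, called under 0.05). Orientation interactions used the 4 groups at 18 hpa, time interactions all 12 groups. Fits were tested on simulated data.

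Totals of 2524235 to 13381025 reads set the precision given beside each value. Alternatives were DESeq2 1.42.0, RLE, library size only, no filter, 1 fit of 12 groups, a replicate block, each library left out, TMM-scaled levels and other likeness measures. Replicate numbers paired the samples only for labelled 48 against 0 hpa in *activin-2* RNAi, where deviations of same-numbered libraries correlated at 0.245 to 0.343. This rests on the data, since the labels state no pairing.

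The named contigs were dd_950, *activin-2*, all contigs with the Filament term, matches to plakins or lamins, and those most like dd_950 (10 over all libraries, 5 by deviations, 5 over controls). The contig, the lists and the rule were chosen with earlier results of these data known.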

Additional observations from a re-analysis of the deposited data

Results flagged for a closer look

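Among 64 sets of 4 libraries examined for a library far from the others, 2 held one. The same libraries recur in these sets for different contigs, so the sets are not independent. The chance rate of 1 in 20 per set is therefore only a guide, and 2 of 64 does not exceed it. Both lay in *activin-2* RNAi at posterior-facing wounds at 18 hpa, in the first replicate. This library also had 70.1 RPM of *activin-2*, against 3.63 to 16.6 RPM in the others, and the lowest dd_950 of its group (35.5 RPM). Neither of these values met the criterion. dd_2016, the lamin B receptor match, had 147.6 RPM in it and 133.2 to 135.6 RPM in the other 3 libraries. dd_8220, the plectin match, had 171.2 RPM in it and 141.7 to 146.5 RPM in the others. dd_950 itself met the criterion in no group of 4.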

How the results depend on the processing

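The difference between the arms in dd_950 kept its direction under every alternative run, and without single libraries its log2 fold changes ran from -4.15 to -2.21. Both orientation differences and the rises at 18 and 24 hpa kept their calls. Without single libraries, the change at 48 hpa ran from 1.09 to 1.56 in *activin-2* RNAi and from 0.37 to 0.76 in control RNAi. In control RNAi it was 0.59 with DESeq2, 0.45 with library size only and 0.59 in the fit of 12 groups, uncalled in each. Of uncalled values, 6 against 0 hpa in *activin-2* RNAi ran from -0.20 to 0.50 without single libraries, the time interaction at 24 hpa ran from -0.32 to 0.077 and was 0.12 with library size only, and 6 against 0 hpa in control RNAi was called without the filter (-0.63). The numbers of other filament contigs called ran from 0 to 3 at 6 hpa, 3 to 7 at 24 hpa and 1 to 4 at 48 hpa without single libraries. The control RNAi level at 24 hpa was 355 CPM with TMM scaling, against 315 RPM. Of the 10 most like contigs, 4 stayed without the 18 hpa libraries. With the replicate number as a block, 48 against 0 hpa in *activin-2* RNAi was 1.31 (edgeR adjusted p = 5.84e-05), and the block changed no call of dd_950. Elsewhere the samples share only a number. For called contigs other than dd_950, 38 of 280 fits without 1 library and 12 of 240 under other settings lost the call (adjusted p no longer under 0.05). The causes of these changes were not tested. Depth limits dd_950 most in *activin-2* RNAi, with as few as 45 reads.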
